A study of Mus musculus with 3 samples.

Results

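The heat shock proteins, the J proteins and the cytosolic chaperonin CCT were described in the maxillary process of mouse embryos at E10.5. The members were the protein coding genes whose GENCODE M21 name marks them as HSP90 (Hsp90), HSP70 (Hspa), HSP110 (Hsph1), small heat shock protein (Hspb), mitochondrial chaperonin (Hspd1, Hspe1), J protein (Dnaja, Dnajb, Dnajc) or CCT subunit (Cct, Tcp1). This gave 81 of 55401 listed genes, with 3 HSP90, 13 HSP70, 1 HSP110, 8 small heat shock proteins, 2 mitochondrial chaperonin genes, 4, 13 and 28 J proteins of classes A, B and C, and 9 names of CCT. Cct6a, a core CCT subunit, is not listed as protein coding in GENCODE M21, so it stood outside the rule and is given beside the CCT genes. The samples were 3 bulk RNA-seq libraries of 1 genotype, wnt1cre; Rosa26Dlx2/- (OE), in which Cre under wnt1 control switches on a CAG-driven Dlx2 with a 3xFlag tag from Rosa26 in neural crest cells. All 3 libraries carried both the Cre and the transgene, and each came from its own RNA sample of freshly dissected tissue. The sources used here do not say whether embryos were pooled, so the spread between libraries can include technical spread. Wild-type libraries were not analysed here, and no value below is an effect of Dlx2: each is a level in OE tissue or a difference between the OE libraries.

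Chaperones bind unfolded or partly folded proteins and, with ATP, help them reach their final shape. HSP70 proteins work in cycles that J proteins start by loading a client and that exchange factors such as HSP110 end, HSP90 acts later on kinases, receptors and other regulators, and the barrel-shaped chaperonins enclose a chain, HSP60 with its lid HSP10 in mitochondria and CCT for actin and tubulin in the cytosol. Some of these genes are used by every growing cell, while others are known for a low level that rises under heat, through heat shock factors, or under endoplasmic reticulum stress.

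The promoters of 6 members are shown because they hold the DNA word read by one of these stress pathways. The 300-base windows run from 250 bases before to 50 bases after a RefSeq transcript start (GRCm38.p6), and windows were given for 66 of the 81 symbols. The heat shock element was searched as GAANNTTCNNGAA or its reverse complement TTCNNGAANNTTC. It was found in 198 of 32851 windows of all genes (0.603%) and in 6 of 85 windows of members, which belonged to Hspd1, Hspe1, Hsph1 and Dnajb6. The endoplasmic reticulum stress element was searched as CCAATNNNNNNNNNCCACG or its reverse complement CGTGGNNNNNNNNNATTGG. It was found in 39 of all windows (0.119%) and in 3 windows of members, those of Hspa5, Hsp90b1 and Dnajc3. Neither word can hold the other whole, and no member window held both. Capitals mark the matching letters, and the sequence is given from 5′ to 3′ on the strand of the gene.
Hspe1, plus strand, chr1:55087898-55088197, matches from -89 and -84 relative to the start: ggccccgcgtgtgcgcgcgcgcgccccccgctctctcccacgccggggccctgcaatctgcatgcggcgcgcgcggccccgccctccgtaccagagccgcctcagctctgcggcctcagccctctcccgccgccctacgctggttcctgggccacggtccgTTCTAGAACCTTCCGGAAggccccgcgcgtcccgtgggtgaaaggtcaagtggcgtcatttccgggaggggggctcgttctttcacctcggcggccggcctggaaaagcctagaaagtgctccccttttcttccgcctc
Hsph1, minus strand, chr5:149636266-149636565, match from 16 bases after the start: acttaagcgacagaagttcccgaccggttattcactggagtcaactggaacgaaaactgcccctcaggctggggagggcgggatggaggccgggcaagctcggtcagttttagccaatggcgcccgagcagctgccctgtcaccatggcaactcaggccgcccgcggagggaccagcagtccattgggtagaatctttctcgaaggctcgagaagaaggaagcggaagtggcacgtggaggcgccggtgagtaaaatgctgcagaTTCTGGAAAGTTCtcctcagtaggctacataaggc
Dnajb6, plus strand, chr5:29735648-29735947, match from -46: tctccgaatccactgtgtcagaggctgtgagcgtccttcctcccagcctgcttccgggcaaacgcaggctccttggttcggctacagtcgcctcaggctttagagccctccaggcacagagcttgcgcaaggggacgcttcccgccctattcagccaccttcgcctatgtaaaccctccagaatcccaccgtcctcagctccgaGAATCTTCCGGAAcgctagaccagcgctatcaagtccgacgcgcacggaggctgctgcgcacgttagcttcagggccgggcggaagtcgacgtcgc
Hspa5, plus strand, chr2:34771840-34772139, match from -65: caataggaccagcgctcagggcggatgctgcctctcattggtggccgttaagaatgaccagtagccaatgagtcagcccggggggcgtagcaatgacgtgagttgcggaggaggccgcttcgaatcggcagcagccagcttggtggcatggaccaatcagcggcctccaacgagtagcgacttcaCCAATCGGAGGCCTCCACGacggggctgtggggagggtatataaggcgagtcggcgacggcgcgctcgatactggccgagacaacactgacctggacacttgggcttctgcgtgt
Hsp90b1, minus strand, chr10:86705395-86705694, matches from -212 and -107: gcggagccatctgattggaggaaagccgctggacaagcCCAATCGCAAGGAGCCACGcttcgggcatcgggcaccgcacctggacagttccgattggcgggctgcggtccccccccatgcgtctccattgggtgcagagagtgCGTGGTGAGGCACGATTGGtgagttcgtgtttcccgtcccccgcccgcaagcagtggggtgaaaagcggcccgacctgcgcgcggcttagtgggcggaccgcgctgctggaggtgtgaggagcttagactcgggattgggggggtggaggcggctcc
Dnajc3, plus strand, chr14:118937682-118937981, match from -105: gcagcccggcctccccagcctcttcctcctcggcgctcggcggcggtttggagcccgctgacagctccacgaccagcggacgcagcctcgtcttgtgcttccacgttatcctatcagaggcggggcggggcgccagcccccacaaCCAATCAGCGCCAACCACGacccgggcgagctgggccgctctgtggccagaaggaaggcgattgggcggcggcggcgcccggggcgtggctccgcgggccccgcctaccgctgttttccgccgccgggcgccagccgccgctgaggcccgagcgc
Hspd1 and Hspe1 lie head to head, and 1 of 2 windows of Hspd1 shares 285 bases with the Hspe1 window printed above. The element there stands before the Hspe1 start and before the start that this Hspd1 window is set on. By the GENCODE M21 start of Hspd1, at chr1:55088243, the element lies inside Hspd1. A match describes letters only. The windows of Hspa1a, Hspa1b and Dnajb1 did not hold this exact spelling, which says nothing about other spellings or other positions.

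The 3 libraries held 36544554, 35351031 and 40057435 counts on genes, named here as replicates 1, 2 and 3 in accession order. Levels are given as CPM, counts per megaread on genes, with library sizes scaled by the trimmed mean of M values (TMM), and, where genes are compared with each other, as RPKM, which is CPM divided by the merged exonic length in kilobases. The targeted gene Dlx2, whose single row does not separate the transgene from the endogenous gene, stood at 235, 201 and 183 CPM. All 8 facial mesenchyme markers, Prrx1 and Twist1 among them, reached 10 counts in each of the libraries, and they summed to 1630, 1677 and 1772 CPM. Markers of other tissues were also found and differed between the libraries. The 9 neuron markers summed to 273, 24.3 and 35.9 CPM, 4 glia markers to 67.0, 15.1 and 19.6, 7 eye and forebrain markers to 25.0, 158 and 146, and 6 pigment cell markers to 4.97, 33.7 and 155. The 5 blood markers summed to 1180, 2141 and 2883 CPM, 6 epithelium markers to 291, 198 and 216, 4 endothelium markers to 218, 237 and 140, and 7 muscle markers to 33.3, 28.8 and 74.7. The lens, macrophage and testis and cilia markers summed to at most 21.9 CPM in any library, with Cryaa of the lens at 0 in replicates 1 and 2. What part these differences in tissue make-up have in the differences between libraries below was not tested, and in bulk tissue fewer cells of a type and less RNA per cell cannot be told apart.

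Most members were expressed in the OE maxillary process. At least 10 counts in every library were found for 71 of 81 members, against 61.3% of all protein coding genes. Together the members summed to 22201 ± 912 CPM (SD, n = 3). The remaining 10 were Cct6b, Hspa1a, Dnajb7, Hspb2 and Hspb3, with at least 1 count in at least 1 library, and Cct8l1, Dnajb8, Dnajc5b, Dnajc5g and Hspb7, with 0 counts in all 3. A count of 0 allows up to 3 counts, or 0.0777 to 0.0843 CPM per library, for counting error only. With unstranded reads, overlapping genes also limit some values: 11 members share at least 10% of their exonic bases with another gene, Hsp90b1, Tcp1 and Dnajc14 among them.

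The libraries differed from each other at most members by more than counting noise, as they did at most genes. In a chi-square test of each gene's counts against the scaled library sizes, with Benjamini-Hochberg adjustment over the 17115 genes whose counts averaged 10 or more, 65 of the 73 members tested passed at 0.05, against 81.5% of all genes tested. This test compares libraries and not conditions. The size of the spread was mostly modest. The highest library exceeded the lowest by at least 2-fold, on the CPM + 0.5 scale, for 6 members, against 23% of all genes tested. These were Dnajc17, Dnajc4, Dnajc30, Dnajc6, Hspb8 and Hspa13. The count was 3 without replicate 1, 6 without replicate 2 and 0 without replicate 3, while the share of all genes fell to 9.51%, 21.3% and 2.78%. With the length and GC trend described below removed it was 9, against 14.2%: Dnajc17, Dnajc6 and Hspb8 were still among them, Dnajc4, Dnajc30 and Hspa13 were not, and Cct7, Hspa2, Hspa1b, Dnajc15, Dnajc19 and Dnajc22 were added. The median ratio of highest to lowest library was 1.47 over the members tested and 1.54 over all genes tested.

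Replicate 3 lay farthest from the others. It was the lowest library for 41 of the 73 members tested (56.2%), against 45.6% of all genes tested, and the highest for 26, against 43.2%. A library's ratio is given here as its log2(CPM + 0.5) minus the mean of the same value in the other 2 libraries, and no test is possible with 1 library on 1 side. Past 1.5-fold in replicate 3, 10 members were higher, against 20.8% of all genes tested, and 13 were lower, against 21.2%. With library sizes taken as total counts these became 4 higher and 22 lower, against 16.7% and 26.6%. That scaling moved the median ratio of all genes tested by -0.11 in replicate 3 and by 0.10 in replicate 1. Against replicate 2 alone 5 members were higher in replicate 3 (18% of all genes), and against replicate 1 alone 14 (23.9%). In replicate 1, 8 members were higher (13.6% of all genes tested) and 6 lower (13.8%), and without replicate 3 these were 4 and 0 (4.86% and 4.01%), while without replicate 2 they were 19 and 14 (24.6% and 23.9%). In replicate 2, 0 members were higher (2.79%) and 0 lower (3.47%), and against replicate 3 alone 12 were higher and 5 lower (17.2% and 18%).

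HSP90 was led by Hsp90ab1, the constitutive cytosolic form, which had the highest RPKM of all members and hardly differed between the libraries. Hsp90ab1 (chr17:45567775-45573271, minus strand) stood at 5414, 5352 and 5545 CPM, and its mean level was 1813 ± 32.8 RPKM (SD, n = 3). Its highest library exceeded its lowest by 1.04 times. The heat-inducible cytosolic form Hsp90aa1 (chr12:110690605-110702728, minus strand) stood at 1664, 1518 and 911 CPM, or 347 ± 102 RPKM (SD, n = 3). Replicate 3 lay apart from the others there, at 0.574 times their level, while the other two were close. With the length and GC trend described below removed, its log2 ratio was -0.52, beside -0.80 with TMM, and not past 1.5-fold. The RPKM of Hsp90aa1 was 0.234, 0.216 and 0.125 times that of Hsp90ab1 in replicates 1, 2 and 3, so the balance of the 2 forms also moved in replicate 3. Of the windows of Hsp90aa1, 36.2% occur in another annotated gene, mostly Gm12346, and none of Hsp90ab1 do, so these ratios can be too low. Hsp90b1, the HSP90 of the endoplasmic reticulum, stood at 368, 336 and 243 CPM and was lowest in replicate 3 as well, at 0.693 times the others. Its log2 ratio there was -0.53 with TMM and -0.19 with the trend removed.

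**Figure D1:**
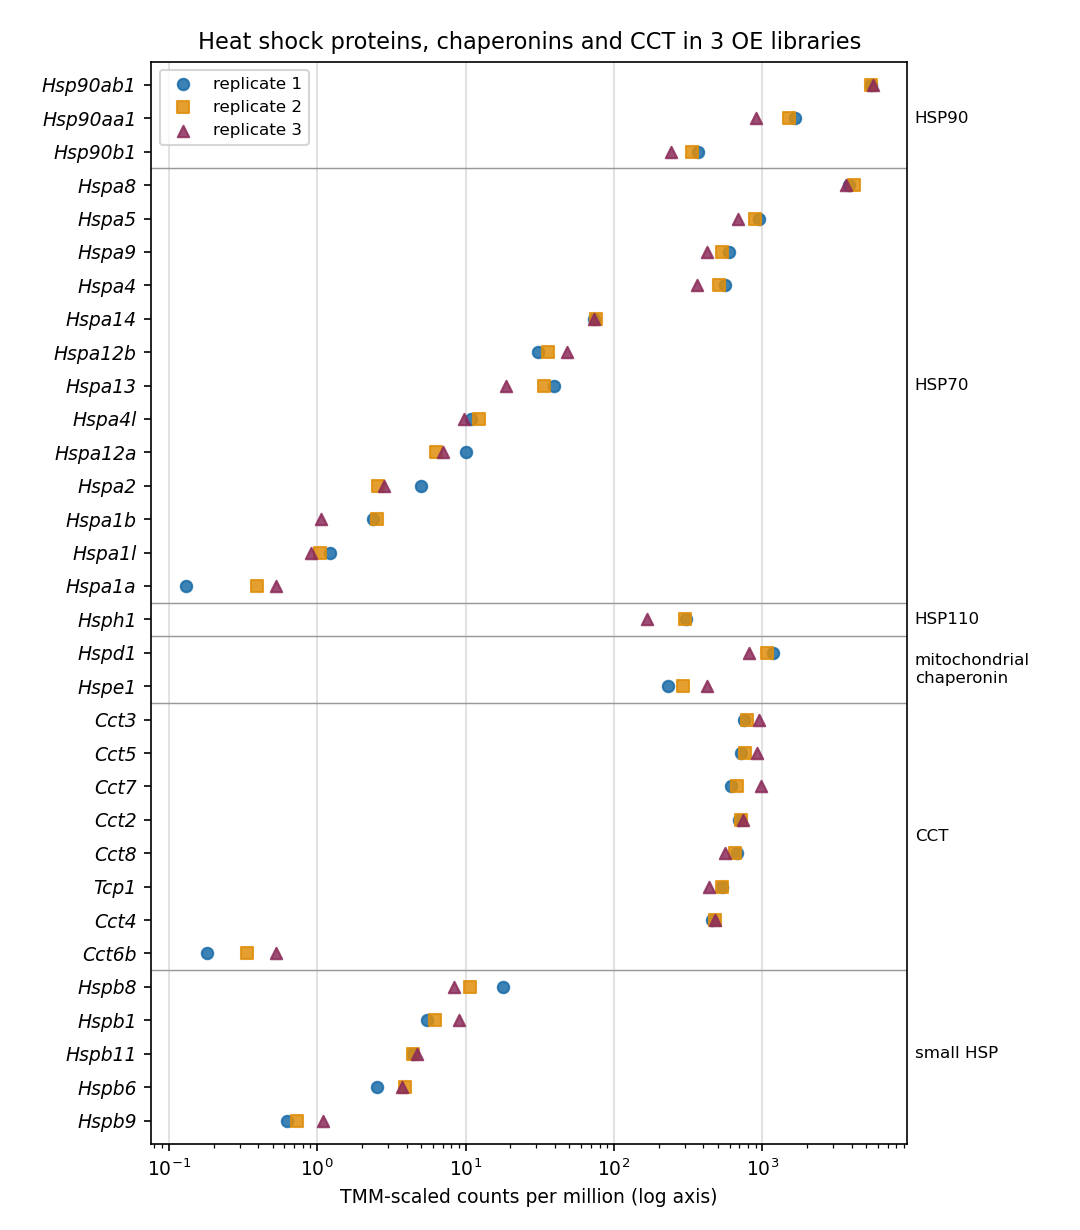
CPM (log axis) of the HSP90, HSP70, HSP110, mitochondrial chaperonin, CCT and small heat shock protein members with at least 1 count in every library, 1 row per gene and 1 symbol per OE library. Hsp90ab1 and Hspa8 sit between 3666 and 5545 CPM, while Hspa1a and Cct6b reach at most 0.531 CPM.

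HSP70 in this tissue was mainly the constitutive form, and 11 of the 13 family members passed the chi-square test, near the 81.5% of all genes. Hspa8 (chr9:40800984-40810087, plus strand), the cognate HSP70 of the cytosol, stood at 3821, 4147 and 3666 CPM and at 902 ± 57.1 RPKM (SD, n = 3). Its values lay close together, within 1.13 times. Of the 150-base windows of its principal transcript, 56.0% occur base for base in another annotated gene, mostly Gm26825, so reads counted only where they map once can miss part of its level. The stress-inducible pair Hspa1a and Hspa1b, which lies on chr17 (34969190-34972156 and 34956436-34959238, minus strand), was low. Hspa1a had 5, 14 and 20 counts, or 0.130, 0.393 and 0.531 CPM. Hspa1b had 91, 90 and 40 counts, or 2.36, 2.53 and 1.06 CPM. Replicate 3 was the highest library for the one and the lowest for the other. The RPKM of Hspa8 was 1056, 1069 and 2250 times that of Hspa1b. The pair is nearly identical, with 46.0% of the windows of Hspa1a and 40.5% of those of Hspa1b shared, so the split of reads between them is uncertain and both levels can be too low.

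The other HSP70 members covered a wide range. Hspa4, a member of the HSP110 branch by sequence, stood at 561, 509 and 363 CPM. Its relative Hspa4l was far lower, at 10.9, 12.4 and 9.72 CPM. In RPKM the 2 differed by more than their spread, with 86.4 ± 18.5 against 0.934 ± 0.114 (SD, n = 3). Hspa14, which acts on the ribosome, was among the most even members, at 73.8, 75.7 and 72.7 CPM, and did not pass the chi-square test (adjusted p = 0.35). Its ribosome partner Dnajc2 stood at 144, 158 and 135 CPM. The ratio of their RPKM stayed between 1.49 and 1.69 in the 3 libraries.

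Among the low members of the family, the distant relatives Hspa12a and Hspa12b had their highest value in different libraries. Hspa12b stood at 30.7, 36.1 and 48.1 CPM and was highest in replicate 3. Hspa12a stood at 10.1, 6.27 and 7.01 CPM and was highest in replicate 1. Hspa2, a testis-enriched form, stood at 5.03, 2.58 and 2.81 CPM, and replicate 1 was 1.73 times the others. Hspa1l, the testis relative of the inducible pair, had 47, 37 and 34 counts (1.22, 1.04 and 0.903 CPM) and did not pass the chi-square test (adjusted p = 0.43). It overlaps another annotated gene over 71.9% of its exonic bases, so its counts are uncertain.

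HSP110 was represented by Hsph1, the exchange factor that resets HSP70, whose promoter holds the heat shock element printed above. Hsph1 stood at 306, 301 and 166 CPM. Replicates 1 and 2 were almost equal, and replicate 3 was at 0.548 times their level. With Hspa4 at 0.681 times in the same library, both of the abundant HSP110-branch genes were lowest in replicate 3. With the length and GC trend removed the log2 ratio of Hsph1 went from -0.87 to -0.47 and that of Hspa4 from -0.55 to -0.23, neither past 1.5-fold.

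Of 8 chaperones of the endoplasmic reticulum, its HSP70 and HSP90 genes and the J proteins that act inside it, 7 were lower in replicate 3 than in the others, beside 51.5% of all genes tested. These 7 and the exception kept their direction under all 4 ways of scaling (TMM, DESeq2 size factors, total counts, and TMM with the length and GC trend removed). Of 17101 genes tested, 40.9% were lower and 36.6% higher under all 4. Dnajc1 kept its direction narrowly, with a log2 ratio of -0.04 with the trend removed beside -0.51 with TMM. The membrane-bound Dnajb12, Dnajb14 and Dnajc14 were not among the 8 chaperones, and their direction changed with scaling. Hspa5, or BiP, the HSP70 of this compartment, stood at 941, 892 and 688 CPM. The J proteins that serve it were next: Dnajc3 was at 75.5, 62.1 and 37.6 CPM, Dnajc10 at 127, 119 and 86.1, Dnajc1 at 83.4, 61.3 and 49.96, and Dnajb9 at 12.4, 9.69 and 7.09. The highest value of these 4 was in replicate 1 each time. Dnajb11, which binds clients together with BiP, was the exception, at 82.7, 82.8 and 94.1 CPM. Hspa13, a small microsomal HSP70, stood at 39.2, 33.7 and 18.7 CPM. With TMM, Hspa13 and Dnajc3 were the members of the group farthest from even, with replicate 3 at 0.522 and 0.552 times the others. With the length and GC trend removed the widest log2 ranges were those of Dnajb9 (0.555) and Dnajc3 (0.546), and that of Hspa13 was 0.39. The ratio of Hspa5 to Hsp90b1, both of which carry the stress element printed above, moved little, with RPKM ratios of 2.43, 2.53 and 2.695. The median ratio of the 8 genes in replicate 3 was -0.52, beside -0.03 for all genes tested, and it was -0.18 with the length and GC trend removed.

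Genes tied to endoplasmic reticulum stress lay on both sides. Of 12 such genes outside the name rule, 11 passed the chi-square test (81.5% of all genes), 4 were more than 1.5-fold higher in replicate 3 (20.8%) and 2 more than 1.5-fold lower (21.2%). The stress transcription factor Ddit3 stood at 4.33, 5.39 and 12.7 CPM and Atf4 at 194, 232 and 351. In contrast, the sensor Atf6 stood at 26.0, 18.8 and 11.8 CPM and the lectin chaperone Canx at 462, 428 and 268. The first pair was highest in replicate 3 and the second pair lowest.

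The mitochondrial chaperonin genes went in opposite directions although they share a promoter region. Hspd1, which encodes HSP60 (chr1:55077835-55088243, minus strand), stood at 1174, 1068 and 806 CPM. Hspe1, which encodes its lid HSP10 (chr1:55088132-55091307, plus strand), stood at 230, 290 and 426 CPM. Against the other libraries, replicate 3 was lower for Hspd1 and higher for Hspe1 under all 4 scalings. In RPKM, Hspe1 was 0.351, 0.487 and 0.947 times Hspd1, a change of 2.698 times between replicates 1 and 3. The difference in length goes with it: the principal transcript of Hspd1 has 2423 bases and that of Hspe1 774. With the trend on length and GC content removed, the log2 ratios in replicate 3 were -0.45 for Hspd1 and 0.61 for Hspe1, beside -0.47 and 0.72 without. The annotated genes overlap by 112 bases at their starts on opposite strands, and the library kit does not mark strand, so reads there cannot be assigned to either. Windows shared with other annotated genes, 18.6% of those of Hspd1 and 14.1% of those of Hspe1, also limit the ratio.

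**Figure D2:**
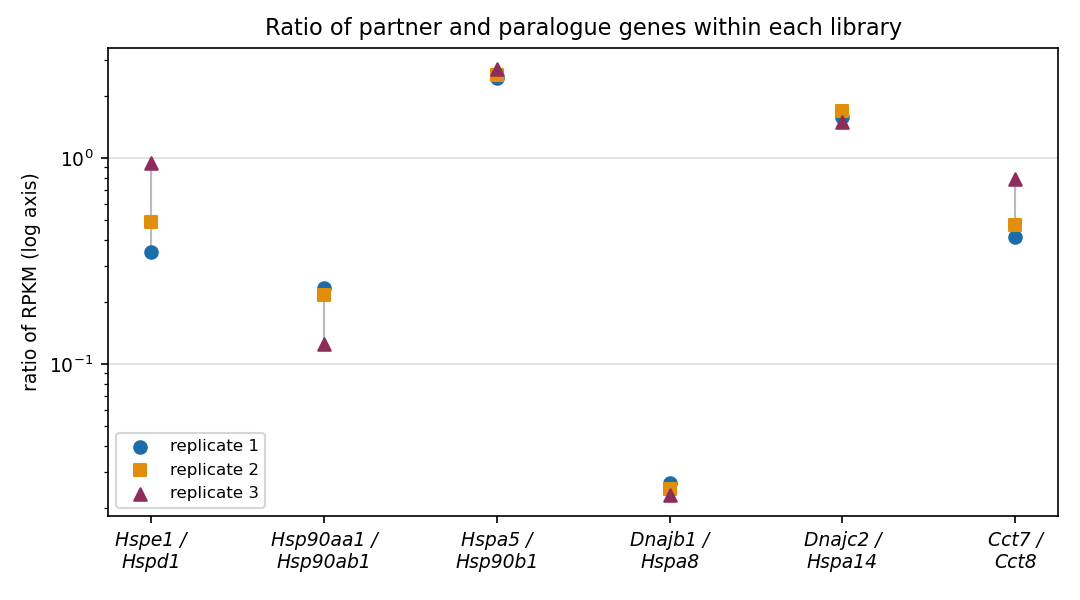
Ratio of the RPKM of 6 gene pairs within each OE library (log axis), with 1 symbol per library and a grey line from the lowest to the highest. Hspe1 over Hspd1 spans 0.351 to 0.947, while Hspa5 over Hsp90b1 spans 2.43 to 2.695.

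The whole set of 9 mitochondrial members was split too, with 5 higher and 4 lower in replicate 3 under all 4 scalings, beside 36.6% and 40.9% of all genes. Hspa9, the HSP70 of the matrix, stood at 591, 535 and 422 CPM and Dnaja3, its class A partner, at 60.0, 62.5 and 52.5. Both were lowest in replicate 3. The J proteins of the inner membrane import motor were highest there: Dnajc19 stood at 25.6, 28.7 and 43.5 CPM and Dnajc15 at 24.1, 30.2 and 44.1. Dnajc11, of the inner membrane organising complex, was nearly even at 167, 171 and 189 CPM. Dnajc30 had 92, 95 and 232 counts (2.38, 2.67 and 6.16 CPM) and Dnajc28 had 187, 143 and 82 (4.85, 4.02 and 2.18 CPM), so the lowest 2 members of this compartment per length had the widest spread with TMM. With the length and GC trend removed the widest log2 ranges were those of Dnajc15 (1.38) and Dnajc19 (1.17). Dnajc30 overlaps Bud23 over 26.2% of its exonic bases, so part of its counts is uncertain.

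CCT was expressed as a set of abundant subunits, and the means of those detected under the rule ran from 473 CPM (Cct4) to 832 CPM (Cct3). Its members summed to 4442, 4608 and 5076 CPM, nearly all of it from 7 subunits, and the 8 tested all passed the chi-square test, as 81.5% of all genes did. Cct3 was at 752, 790 and 953 CPM, Cct5 at 712, 761 and 925, and Cct7 at 614, 676 and 972. These 3 were highest in replicate 3. Cct2 stood at 697, 715 and 744 CPM and Cct4 at 456, 480 and 482, with TMM the most even of the set. The direction of both in replicate 3 turned with total counts as library size. With the length and GC trend removed the narrowest log2 ranges were those of Cct8 (0.055) and Cct2 (0.089), while that of Cct4 was 0.375. Cct8 stood at 678, 650 and 561 CPM and Tcp1 at 532, 536 and 437, both lowest in replicate 3, though for Tcp1 not once the length and GC trend was removed. Cct6a, outside the rule, stood at 454, 436 and 330 CPM. The median of the 8 tested members in replicate 3 was 0.19. Without Cct6b, which has few counts, the median of the other 7 was 0.08, and it was -0.06 with total counts and 0.22 with the length and GC trend removed. With TMM no subunit reached a 2-fold range, and Cct7 alone was past 1.5-fold, at 1.51 times the other libraries. With total counts Cct7 was at a log2 ratio of 0.46 and no subunit was past 1.5-fold. With the length and GC trend removed Cct7 was at 1.05, with a range of more than 2-fold (log2 1.18), and Cct3 at 0.68 was past 1.5-fold too.

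The CCT ring is known to hold its subunits in equal number. Per length, the transcripts of the detected subunits were not at equal levels, and their span depended on the length used. On the merged exonic length the highest subunit, Cct5, was 2.90 times the lowest, Tcp1, with means of 289 ± 40.3 and 99.7 ± 11.2 RPKM (SD, n = 3). Merged exons include retained introns, which make some genes long: Cct3 has 6370 merged bases and 1977 in its principal transcript, and Cct7 has 6778 and 2441. On the principal transcript the span was 2.27 times, from Cct4 with 190 ± 5.86 to Cct5 with 431 ± 60.2 RPKM (SD, n = 3), and the order changed. With Cct6a, which had 166 ± 27.4 RPKM by that length, the span was 2.60 times. By that length the means of Cct5 and Cct3 (421 ± 53.9) did not differ beyond the spread between libraries, nor did those of Cct4 and Tcp1 (205 ± 22.9). Within each library, however, Cct5 was above Cct3. Tcp1 shares 18.5% of its windows, mostly with Acat3, so its level can be too low. Cct8l1 was at 0 counts in all 3 libraries, and Cct6b had 7, 12 and 20 counts.

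**Figure D3:**
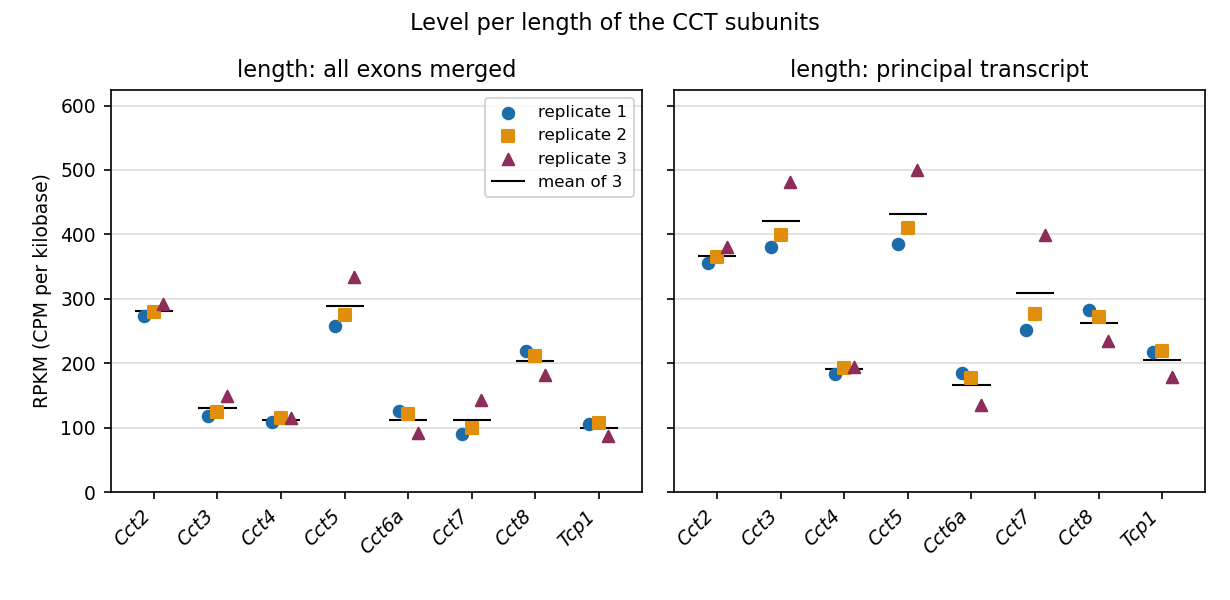
RPKM of the detected CCT subunits and Cct6a in the 3 OE libraries, with a bar for the mean, by merged exonic length on the left and by principal transcript length on the right. The subunit with the highest mean is Cct5 on both scales, and the span of the 7 subunits of the rule is 2.90 times on the left and 2.27 times on the right.

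Prefoldin, which hands nascent actin and tubulin to CCT, was less even than CCT. All 6 genes passed the chi-square test (81.5% of all genes), 4 were more than 1.5-fold higher in replicate 3 (20.8%) and 1 was more than 1.5-fold lower (21.2%). Pfdn5 stood at 83.3, 108 and 250 CPM and Pfdn1 at 52.3, 71.4 and 136. Vbp1 was the lower gene, at 87.1, 76.3 and 45.6 CPM. The median ratio of the 6 in replicate 3 was 1.00, and 0.63 after the length and GC trend was removed. Of 4 CCT cofactors, 2 passed the chi-square test, with Pdcd5 at 70.5, 88.5 and 136 CPM and Pdcl at 58.3, 46.4 and 24.6.

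The small heat shock proteins had the smallest sum of the families, 28.0 ± 2.71 CPM (SD, n = 3). Hspb8, which works with Bag3 in selective autophagy, stood at 17.9, 10.6 and 8.39 CPM, and replicate 1 was 1.85 times the others. The heat-inducible Hspb1 stood at 5.49, 6.21 and 9.03 CPM, highest in replicate 3 by 1.5 times, although it was lower there once the length and GC trend was removed. Per length Hspb1 and Hspb8 did not differ beyond their spread, with 6.70 ± 1.81 and 6.31 ± 2.55 RPKM (SD, n = 3). The level of Hspb1 can be undercounted, since 53.4% of its 150-base windows occur in another annotated gene, mostly Hsp25-ps1. Hspb11, an intraflagellar transport protein despite its name, was even at 4.43, 4.38 and 4.73 CPM (adjusted p = 0.77, chi-square test). Hspb6 stood at 2.51, 3.88 and 3.72 CPM, and the testis gene Hspb9 at 0.622, 0.730 and 1.09 CPM (adjusted p = 0.075, chi-square test). Of the muscle forms, Hspb2 had 2, 0 and 11 counts, Hspb3 had 2, 0 and 0, and Hspb7 had 0 in all 3 libraries. Hspb2 overlaps Cryab over 30.2% of its exonic bases. The family median in replicate 3 was 0.22 and turned to -0.22 with the trend removed.

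The class A J proteins, which are general partners of cytosolic HSP70 apart from the mitochondrial Dnaja3, were all lower in replicate 3 than in the others, as 51.5% of all genes were, except that Dnaja1 was not once the length and GC trend was removed. Of the windows of Dnaja1, 20.0% occur in another annotated gene, so its level can be too low. Dnaja1 stood at 508, 503 and 375 CPM and Dnaja2 at 304, 304 and 205. In RPKM the order was reversed, with 91.1 ± 19.2 for Dnaja2 and 53.6 ± 8.74 for Dnaja1 (SD, n = 3). By principal transcript their means did not differ beyond the spread between libraries (92.9 ± 19.6 and 82.2 ± 13.4), though Dnaja2 was the higher within each library. Dnaja4, also named for its values, which overlaps Wdr61 over 44.1% of its exonic bases, had 68, 66 and 36 counts.

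Of class B, 9 of the 11 members tested passed the chi-square test, with 2 higher and 3 lower by 1.5-fold in replicate 3, near the shares of all genes (81.5%, 20.8% and 21.2%). The class held the heat-inducible HSP40, Dnajb1, at 75.2, 76.5 and 63.4 CPM. Its RPKM was 0.0264, 0.0248 and 0.0232 times that of Hspa8, a ratio that moved by 1.14 times. Dnajb6, which holds back aggregation of polyglutamine proteins and carries the heat shock element printed above, stood at 148, 135 and 87.0 CPM, and its replicate 3 was at 0.617 times the others. Of its windows, 28.8% occur in another annotated gene. Dnajb4, a muscle-enriched relative of Dnajb1, stood at 17.6, 15.1 and 9.29 CPM. With the length and GC trend removed the log2 ratio of Dnajb4 in replicate 3 was -0.16, beside -0.78 with TMM. That of Dnajb6 was -0.53, beside -0.70, so neither was then past 1.5-fold. Dnajb2 and Dnajb5, named because their values stood out, went the other way: Dnajb2 stood at 23.5, 26.2 and 38.3 CPM and Dnajb5 at 17.9, 16.9 and 27.2. Dnajb7 had 5, 9 and 2 counts and Dnajb8 had 0, both known from testis.

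**Figure D4:**
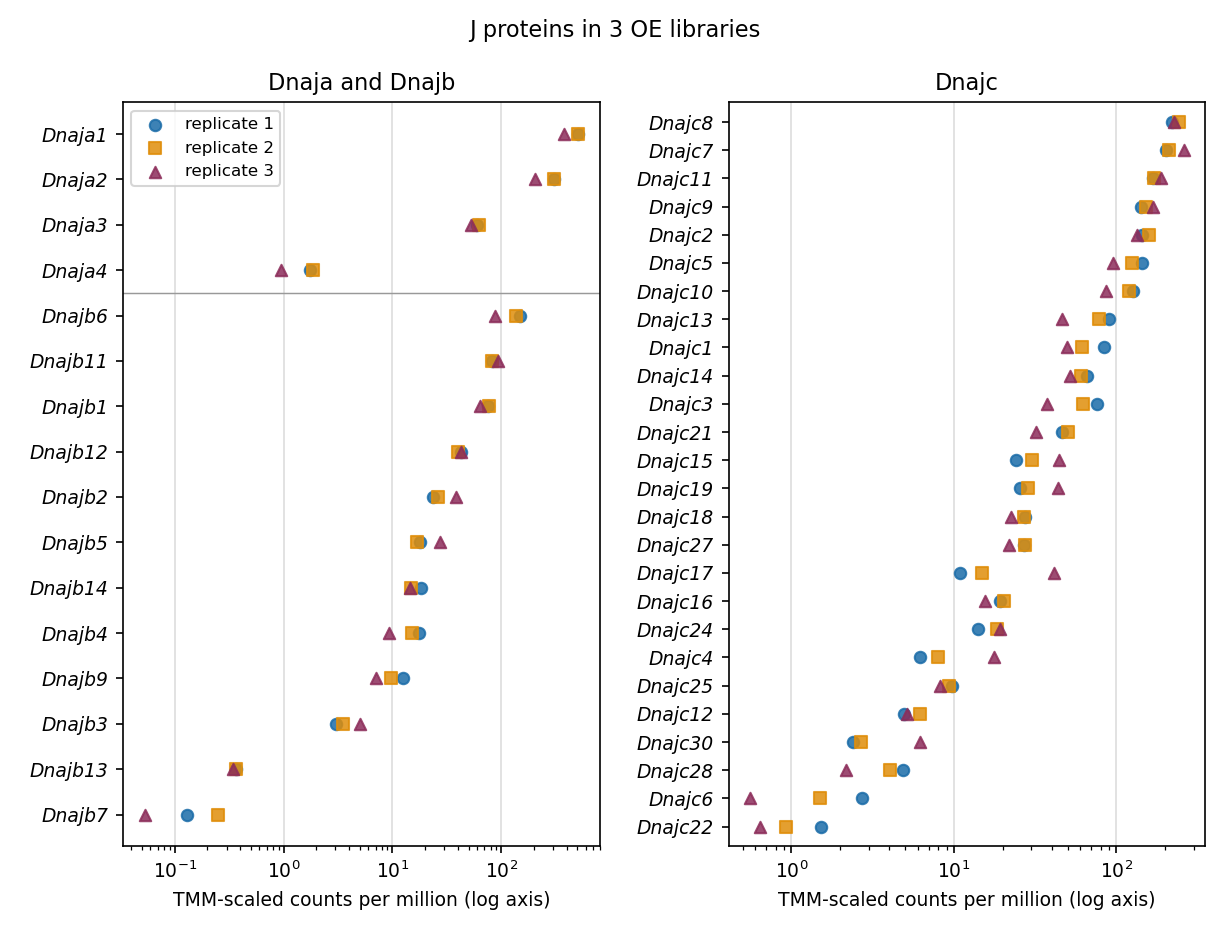
CPM (log axis) of the J proteins with at least 1 count in every library, with classes A and B on the left, divided by a line, and class C on the right, 1 symbol per OE library. Dnajc17, Dnajc4 and Dnajc30 are highest in replicate 3, and Dnajc13, Dnajc3, Dnajc28 and Dnajc6 are lowest there.

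Class C J proteins have specific tasks, and their levels were spread over a wide range. Of the 26 tested, 24 passed the chi-square test, with 5 higher and 4 lower by 1.5-fold in replicate 3 (all genes 81.5%, 20.8% and 21.2%), and the class median of -0.24 there became 0.07 with the length and GC trend removed. Dnajc8, which associates with the splicing machinery, led by RPKM with 89.4 ± 4.64 (SD, n = 3), and its 218, 242 and 225 CPM were even. Dnajc9, a chaperone of histones H3 and H4, was at 65.0 ± 5.73 RPKM, with 142, 152 and 169 CPM. Dnajc7, which links HSP70 and HSP90, was at 46.2 ± 6.27 RPKM, with 203, 211 and 259 CPM. These 3 therefore lay in the order Dnajc8, Dnajc9, Dnajc7 by more than their spread. By principal transcript Dnajc9 and Dnajc7 did not differ beyond their spread (94.7 ± 8.35 and 96.4 ± 13.1). Dnajc5, the synaptic vesicle protein CSPalpha, was also expressed, at 144, 124 and 94.9 CPM.

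With TMM, the largest spread among J proteins with a mean count of at least 100 was that of Dnajc17, while with the trend removed Dnajc15 had a wider log2 range (1.38 against 1.252). Dnajc17 is a splicing-linked protein on chr2:119172500-119208795 (minus strand). It had 418, 533 and 1552 counts, or 10.8, 15.0 and 41.2 CPM. Replicate 3 stood at 3.15 times the others (log2 1.65), and the log2 ratio was 1.11 with the length and GC trend removed. Dnajc4 stood at 6.19, 8.01 and 17.5 CPM, with replicate 3 at 2.39 times the others (log2 1.26), and at a log2 ratio of 0.58 with the trend removed. Lower in replicate 3 was Dnajc13, which acts in endosome sorting, at 89.6, 78.3 and 46.5 CPM. Its log2 ratio there was -0.84 with TMM and -0.23 with the trend removed. Dnajc6, or auxilin, the clathrin-uncoating partner of HSP70 that is abundant in neurons, was named because its values stood out: it had 105, 53 and 21 counts, or 2.72, 1.49 and 0.557 CPM. Its highest library was also that with the highest neuron sum, at 273 CPM, and the part of tissue make-up in this was not tested. Dnajc22, also named for its values, had 59, 33 and 24 counts. The remaining class B and C members ranged in CPM from Dnajc14, at 66.0, 60.9 and 51.9, to Dnajb13, at 0.363, 0.365 and 0.345. Among them Dnajb12, Dnajc25, Dnajc12 and Dnajb13 did not pass the chi-square test, with adjusted p between 0.051 and 0.99. Dnajc5b and Dnajc5g, the relatives of Dnajc5, were at 0 counts in all 3 libraries.

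The ratio of replicate 3 went with gene length in part. Over genes tested that had a length, the median ratio in replicate 3 was 0.47 for genes under 2000 merged exonic bases, 0.13 from 2000 to 4000, -0.21 from 4000 to 8000 and -0.53 above. The medians of the 11, 24, 30 and 8 members in the same classes were 0.54, -0.12, -0.29 and -0.34. Across the 73 members tested, the Spearman correlation of ratio and length was -0.38, beside -0.46 over all genes tested, as a description over genes that share the same 3 libraries. Members followed the direction of all genes in 3 of 4 classes, and in the class from 2000 to 4000 bases they lay on the other side of 0. Of the 73 members, 32 were lower and 19 higher in replicate 3 under all 4 scalings, and 22 changed sign under at least 1, beside 40.9%, 36.6% and 22.5% of 17101 genes tested. The median over members was -0.21 with TMM and -0.05 with the trend removed.

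**Figure D5:**
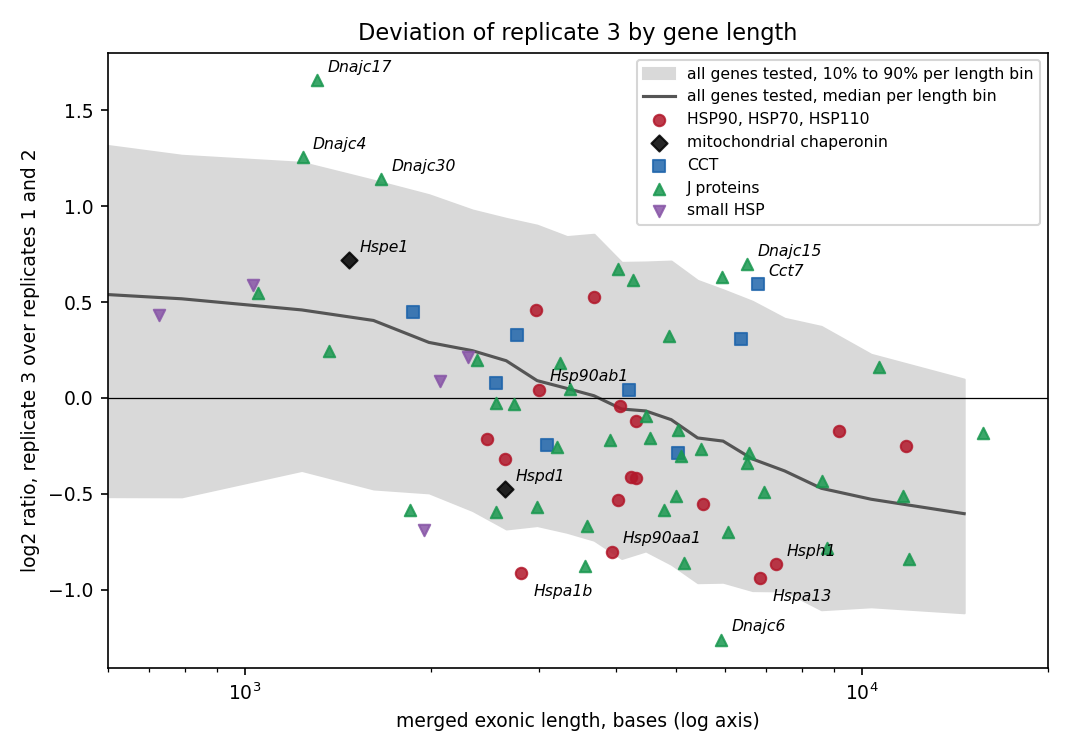
Log2 ratio of replicate 3 over the other 2 libraries against merged exonic length (log axis) for the 73 members tested, with the median of all genes tested per length bin as a line and their 10% to 90% range in grey. Members lie on both sides of the line at most lengths. Among those outside the grey range, Dnajc17 (1.65) and the long Dnajc15 (0.70) and Cct7 (0.59) sit above it. The short Hspb8 (-0.69), Hspa1b (-0.91) and Dnajc6 (-1.26) sit below it.

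The regulators and partners outside the name rule are given by their counts, which read against 81.5% of all genes past the chi-square test and 20.8% higher and 21.2% lower by 1.5-fold in replicate 3. Of the heat shock factors, which drive the heat-inducible members, Hsf1 stood at 84.3, 93.6 and 132 CPM and Hsf2 at 56.2, 49.8 and 38.5. Hsf4 had 6, 1 and 13 counts and Hsf5 had 13, 6 and 22. The 3 factors tested all passed the chi-square test, and none was past 1.5-fold in replicate 3 with TMM, while Hsf1 at 0.66 and Hsf5 at 0.62 were with the length and GC trend removed. The 10 heat-inducible members (Hspa1a, Hspa1b, Hsph1, Dnajb1, Hsp90aa1, Hspb1, Dnaja1, Hspd1, Hspe1 and Hspa8), a list that overlaps the families above and holds the mainly constitutive Hspa8, all passed it too, with 2 higher and 3 lower by 1.5-fold in replicate 3 and a median of -0.34. All 12 HSP90 cochaperones passed, with 3 higher and 1 lower. Among them Fkbp4 stood at 1098, 1203 and 1625 CPM, and Cdc37, which brings kinases to HSP90, stood at 432, 489 and 726. Of 12 exchange factors and partners of HSP70, 11 passed, with 3 higher and 1 lower. Hspbp1 stood at 72.1, 85.2 and 193 CPM, with a log2 ratio of 1.29 in replicate 3 that was 0.67 with the trend removed, and Bag3, the partner of Hspb8, stood at 24.4, 22.3 and 23.4 and did not pass (adjusted p = 0.21, chi-square test). Of 11 further chaperones outside the name rule, 10 were tested and passed, with 2 higher and 1 lower. Of 8 immediate early genes, which respond to handling and dissection, 7 were tested and 5 passed, with 2 higher and 0 lower. Fos stood at 0.466, 0.506 and 0.531 CPM and Jun at 40.0, 58.9 and 82.0. Jun was highest in replicate 3, while Fos did not pass the chi-square test (adjusted p = 0.93).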

How the data were processed

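RNA of the E10.5 OE maxillary process was poly-T selected, prepared with a kit that does not mark strand and sequenced with paired 150-base reads. The authors deposited raw counts per gene for each of 3 libraries. The submitters' processing notes name FastQC, STAR 2.7.3a and HTSeq 0.12.4, with build mm10, and the annotation release and strand setting were not given in the sources used here. Identifiers were named by GENCODE M21 (55141 of 55401 matched), and rows that name no gene, which held 14.2% to 16.4% of each library, were left out. Counts were scaled by TMM (edgeR 4.0.16, R 4.3.3), with 0.5 CPM added for log2 ratios. Each gene whose counts averaged 10 or more was tested by chi-square, with expected counts in proportion to TMM-scaled library sizes and p-values adjusted by Benjamini-Hochberg; this covers counting error between libraries only. No comparison between genotypes was made. Alternatives used DESeq2 1.42.0 size factors, total counts, other pseudocounts and limits, a trend on length and GC content (mgcv 1.9.3), other gene lengths, and each library left out. Named were all members other than J proteins, and, of the J proteins, those with the highest level per length, the widest range or under 10 counts, and partners of organelle chaperones. The members and lists were chosen with earlier results of these data known. Promoter windows came from RefSeq (GRCm38.p6).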

Additional observations from a re-analysis of the deposited data

How the results depend on the processing

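Of 461 values recomputed under an alternative, 422 stayed within the set limits (1.5 times for a count, 1 SD between the 3 libraries for a level or span) and 39 moved. All but 1 of them are counts, levels or spans, which have no sign. Of the log2 ratios in replicate 3, 22 of 73 members changed sign under at least 1 scaling. Each count below is followed by the share of all genes tested under the same setting. The 6 members with a 2-fold range became 13 with total counts (24.3%), 12 with 0.1 CPM added (32.1%), 35 with a limit of 1.5-fold (53.3%), 9 with the length and GC trend removed (14.2%), and 0 to 6 with 1 library left out (2.78% to 21.3%). In replicate 1, the 8 higher members became 13 with total counts (18.8%), 5 with 1 CPM added (11.4%), 5 with the trend removed (8.69%), 1 at a limit of 2-fold (3.15%) and 4 to 19 with 1 library left out (4.86% to 24.6%). The 6 lower ones became 2 with total counts (10.1%), 1 at 2-fold (2.99%) and 0 to 14 with 1 library left out (4.01% to 23.9%). In replicate 2, the 0 higher members became 1 with 0.1 CPM added (5.52%), 1 with the trend removed (2.82%) and 0 to 12 with 1 library left out (4.01% to 17.2%), and the 0 lower ones 4 to 5 (4.86% to 18%). In replicate 3, the 10 higher members became 4 with total counts (16.7%), 3 at 2-fold (7.82%) and 5 to 14 with 1 library left out (18% to 23.9%), and the 13 lower ones 22 with total counts (26.6%), 7 with the trend removed (13.6%) and 1 at 2-fold (6.65%). The 2.90-fold span of the CCT subunits was 2.27-fold by principal transcript and 2.60-fold when Cct6a was added to it, an alternative chosen after seeing the data, as was the CCT median without Cct6b, which fell from 0.19 to 0.08 on the log2 scale, and the median level per length of all members rose from 6.90 to 11.4 RPKM. Members past the chi-square test numbered 45 of 71 without replicate 3 (48.8%), 56 of 73 without replicate 1 (71.2%) and 65 of 73 without replicate 2 (77.7%). Total counts shift the ratios of all genes by construction, and the cause of the other moves was not tested. No paired analysis was possible because all 3 libraries belong to 1 group. Reads shared with near-identical genes and overlaps without strand limit the values of the members that have them.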

Other observations

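Rows with a member's name that GENCODE M21 does not list as protein coding were nearly silent, apart from Cct6a. Hspa9-ps1 had 17, 5 and 5 counts, Dnajc19-ps had 6, 8 and 16, Cct3-ps1 had 4, 2 and 4, and Dnaja1-ps had 0, 0 and 1. The genes after which they are named had far more, with 22807, 19027 and 15880 counts for Hspa9, for example.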
